A study of Mus musculus with 6 samples.

Results

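The genes of cholesterol and fatty acid synthesis were examined in leukemia cells from 2 regions of mouse bone marrow. The members are 33 of the 54532 genes in the deposited table, taken by symbol from a list of targets of the sterol regulatory element binding proteins (SREBPs): 20 genes of the sterol arm, 8 of the fatty acid arm and 5 regulators. The cells carried AE9a (AML1-ETO9a), an alternatively spliced product of the AML1-ETO fusion gene, introduced with a GFP retrovirus into c-Kit+ progenitors of C57BL/6 mice and passaged through transplant recipients, all of the same transplant generation. Leukemia cells flushed from the femurs and tibias stand for central bone marrow (CBM, 3 libraries), and cells released afterwards from the same bones by collagenase I stand for endosteal bone marrow (EBM, 3 libraries). Per the labels, the cells of both regions were kept in IMDM medium with 10% serum around the sort. CBM cells were not digested, so that region and collagenase treatment cannot be told apart. The model is a single retroviral leukemia, and the labels do not say that the libraries came from separate mice, so that p-values measure only the spread between these libraries.

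Cells make cholesterol from acetyl-CoA through mevalonate, farnesyl diphosphate, squalene and lanosterol, and make fatty acids from the same acetyl-CoA through malonyl-CoA. The transcription factors SREBF1 and SREBF2 sit as precursors in the endoplasmic reticulum, where SCAP escorts them to the Golgi for cleavage when sterols are low and INSIG1 and INSIG2 hold SCAP back when sterols are high. SREBF2 is best known for driving the sterol arm and SREBF1 for the fatty acid arm, and dividing blood cells run both arms to build membranes.

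Each library held between 16436526 and 19462964 counts on genes, and 3 counts correspond to between 0.154 and 0.183 CPM, a gene's count scaled by the normalized total of its library. The identity of the cells was checked first. Kit, the receptor that marks these leukemia cells, had between 196 and 239 CPM in the 6 libraries. The summed level of 8 progenitor markers, most of it from Kit and Myb, was between 544 and 567 CPM in CBM and between 556 and 602 CPM in EBM. Cd34, a weakly counted gene of this list, was uneven across the libraries. It had 15.4, 1.16 and 4.86 CPM in CBM and 16.4, 10.5 and 1.22 CPM in EBM, lowest in CBM replicate 2 and EBM replicate 3. The weakly counted granule genes of this list had higher estimates in EBM, with log2 fold changes of 1.67 for Mpo, 1.56 for Ctsg, 1.51 for Elane and 1.15 for Prtn3. Of the 7 progenitor markers tested, 6 had a higher estimate, 0 reached an unadjusted p under 0.05 in edgeR (1 in DESeq2 and 1 in limma-voom), and all overlapped between the regions. The defining osteoblast genes Bglap2, Alpl and Sp7 had no count in any library, and 7 osteoblast markers summed to at most 0.779 CPM. Of 8 adipocyte markers, Lep, Pck1 and Cfd had no count and only Lipe, a lipase also found outside fat, was above the filter on low counts. Summed erythroid markers ranged from 2170 to 5640 CPM in CBM, the highest in replicate 2, and from 2570 to 4020 CPM in EBM, the highest in replicate 3. Summed neutrophil markers ranged from 3.37 to 228 CPM in CBM, also highest in replicate 2, and from 35.2 to 163 CPM in EBM. On the leading principal component of all genes (53% of the variance), CBM replicate 2 and EBM replicate 3 lay on one side, at -42.9 and -46, and CBM replicate 1, EBM replicate 1 and EBM replicate 2 on the other, at 38.5, 36.4 and 19.8. CBM replicate 3 lay at -5.8, so this component did not follow the regions.

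The promoters of the members that differed most, with those of 2 members that differed little, are shown because SREBPs act there together with NF-Y, a factor that binds CCAAT, and Sp1. They are the 250 bases before the RefSeq start (GRCm38.p6), written 5′ to 3′ on the strand of the gene. Capitals mark the classical sterol regulatory element, searched as TCACNCCAC, and CCAAT on either strand, which reads ATTGG where it lies on the other strand. Hmgcs1 and Insig1 had the largest difference of the sterol arm and of the regulators, Msmo1 and Cyp51 process lanosterol and had the next largest sterol differences apart from the weakly counted Fdps, Fasn stands for the fatty acid arm, and Acat2 is the only matched sterol gene without CCAAT. The stretches are chr13:119690101-119690350 (plus strand) for Hmgcs1, chr5:28071162-28071411 (plus) for Insig1, chr8:64733579-64733828 (minus) for Msmo1, chr5:4104698-4104947 (minus) for Cyp51, chr11:120824548-120824797 (minus) for Fasn and chr17:12960726-12960975 (minus) for Acat2.
Hmgcs1: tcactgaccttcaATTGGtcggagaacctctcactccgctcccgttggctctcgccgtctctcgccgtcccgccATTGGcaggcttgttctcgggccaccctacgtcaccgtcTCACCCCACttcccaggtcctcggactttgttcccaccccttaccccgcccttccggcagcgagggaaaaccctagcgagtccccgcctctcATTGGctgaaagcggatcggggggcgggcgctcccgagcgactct
Insig1: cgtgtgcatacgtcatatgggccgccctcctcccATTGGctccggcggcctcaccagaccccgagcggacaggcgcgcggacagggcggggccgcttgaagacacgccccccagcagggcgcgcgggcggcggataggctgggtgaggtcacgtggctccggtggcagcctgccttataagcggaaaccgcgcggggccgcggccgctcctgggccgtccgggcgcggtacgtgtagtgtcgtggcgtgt
Msmo1: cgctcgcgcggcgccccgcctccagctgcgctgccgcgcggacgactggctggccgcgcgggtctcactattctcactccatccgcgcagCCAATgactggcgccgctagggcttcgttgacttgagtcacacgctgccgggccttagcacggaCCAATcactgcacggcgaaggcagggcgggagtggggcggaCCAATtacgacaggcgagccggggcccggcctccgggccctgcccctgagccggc
Cyp51: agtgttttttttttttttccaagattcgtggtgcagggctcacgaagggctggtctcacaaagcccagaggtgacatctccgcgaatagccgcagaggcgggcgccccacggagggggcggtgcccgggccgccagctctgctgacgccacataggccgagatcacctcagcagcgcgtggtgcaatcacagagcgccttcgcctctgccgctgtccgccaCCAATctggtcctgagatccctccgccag
Fasn: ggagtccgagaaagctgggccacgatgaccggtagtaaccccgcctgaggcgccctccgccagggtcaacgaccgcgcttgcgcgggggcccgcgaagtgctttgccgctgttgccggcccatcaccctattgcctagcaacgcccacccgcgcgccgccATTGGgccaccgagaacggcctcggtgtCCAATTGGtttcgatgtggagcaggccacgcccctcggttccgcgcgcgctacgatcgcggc
Acat2: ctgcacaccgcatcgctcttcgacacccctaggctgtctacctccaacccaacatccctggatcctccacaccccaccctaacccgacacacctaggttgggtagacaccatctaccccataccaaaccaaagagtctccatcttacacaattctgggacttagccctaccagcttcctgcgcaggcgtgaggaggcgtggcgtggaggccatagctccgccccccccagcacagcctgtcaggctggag

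RefSeq promoter windows, 300 bases from 250 before to 50 after the start, were matched for 26 of the 33 members. Scd1, Scd2, Fads1, Fdft1, Fdps, Sqle and Stard4 had no match in the promoter table. CCAAT was present in 15 of 16 sterol genes, in 2 of 5 fatty acid genes (Acly and Fasn) and in 4 of 5 regulators (not Scap), against 41.1% of all 27025 genes with a window. GGGCGG, the core of an Sp1 site, was present on either strand in 15 of 16 sterol genes (not Pmvk), in 2 of 5 fatty acid genes (Acly and Fads2) and in 5 of 5 regulators, against 38.2% of all genes. The sterol regulatory element TCACNCCAC was found only in Hmgcs1 among the matched members, starting 137 bases before the start, and in 1.44% of all genes. The E-box form TCACGTGA was found in none of the matched members and in 1.12% of all genes. In these letters and windows, CCAAT and GGGCGG were each frequent in the sterol arm. Both were present in genes that differed little between the regions and in those that differed most. A gene counted if any of its windows held the motif. The shares of all genes include genes not tested here, and the share holding both motifs was not counted. Neighbouring matches can share bases at their ends and were not merged, and a match describes the letters, not binding.

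Levels were compared between genes per length, as TPM, length-scaled shares of the library computed here from the deposited counts and gene lengths. The most abundant member was Scd2, a stearoyl-CoA desaturase that makes monounsaturated fatty acids, at 397 ± 157 TPM in CBM and 323 ± 61.1 TPM in EBM (SD, n = 3 each). Acly, which makes cytosolic acetyl-CoA from citrate, followed at 201 ± 36.5 and 193 ± 19.4 TPM, and Lbr, the lamin B receptor with sterol reductase activity, at 197 ± 6.98 and 165 ± 10.7 TPM. Acly and Lbr did not differ beyond their spread in CBM. In EBM, Insig1 (175 ± 30.6 TPM) and Srebf2 (169 ± 36.1 TPM) lay between them, not apart from Lbr beyond their spread. Srebf1 (167 ± 26.7 TPM in CBM) and Srebf2 (148 ± 43.4 TPM) also lay within each other's spread. Among the members that passed the filter on low counts, Fdps, the farnesyl diphosphate synthase, was lowest at 1.56 ± 0.896 and 2.49 ± 0.721 TPM. Tm7sf2, a sterol reductase acting on the same step as Lbr, was next at 5.07 ± 0.88 and 4.97 ± 0.516 TPM. Elovl6 (0.0423 and 0.0705 TPM) and Fads2 (0.689 and 0.599 TPM) were lower still and did not pass it. Lbr was the far more abundant of these sterol reductases in both regions. Fdps shared 26.7% of its annotated exon bases with Gm43738 on the same strand, and 23.5% of its 75-base words occurred in other genes, so that its counts are uncertain. The same holds for Acat2 (33.9% of words in other genes), Acaca (26.8%), Idi1 (23.6%) and Fdft1 (21.8%). Tm7sf2 shared 12.1% of its exon bases with Vps51 on the same strand, and 8.83% of its words occurred in other genes. Genes on the opposite strand overlap 18.3% of the exon bases of Fdft1, 13.2% of Scap, 12.1% of Hmgcs1, 9.24% of Lbr and 9.22% of Idi1, and whether counting used the strand is not given in the sources used here. In the fatty acid arm, Elovl6, which elongates palmitate, had 0, 4 and 1 counts in CBM and 0, 8 and 0 in EBM, and Fads2, the delta-6 desaturase, had 11, 3 and 4 counts and 9, 3 and 4 counts. These 2 genes did not pass the filter on low counts and are given no fold change, which left 31 of the 33 members tested.

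Across all 13352 genes tested, edgeR's quasi-likelihood F-test called 0 genes at an adjusted p under 0.05 (0%), with a smallest adjusted p of 0.0583, and DESeq2 called 173 (1.36% of the 12760 with an adjusted p). No member was called by either tool. At an unadjusted p under 0.05, edgeR placed 4.01% of all genes higher and 3.9% lower in EBM. Of the 31 members tested, Insig1, Hmgcs1 and Pmvk reached this level, 3 higher and 0 lower, a larger share than that of all genes but on few genes. Insig1 and Hmgcs1 were already seen to be higher in EBM when the members were chosen. This share and the counts that follow therefore do not test the members. The ranges of the 2 regions did not overlap for 3 members, with EBM above CBM for Insig1 and Pmvk and below it for Lbr. Among all genes, EBM lay wholly above CBM for 7.47% and wholly below it for 7.65%. Read against these shares, separate ranges were no more frequent among the members. By sign alone, 23 members had a higher estimate in EBM and 8 a lower one (median log2 fold change 0.08), against 6726 higher and 6626 lower with a median of 0.00 over all genes.

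**Figure D1:**
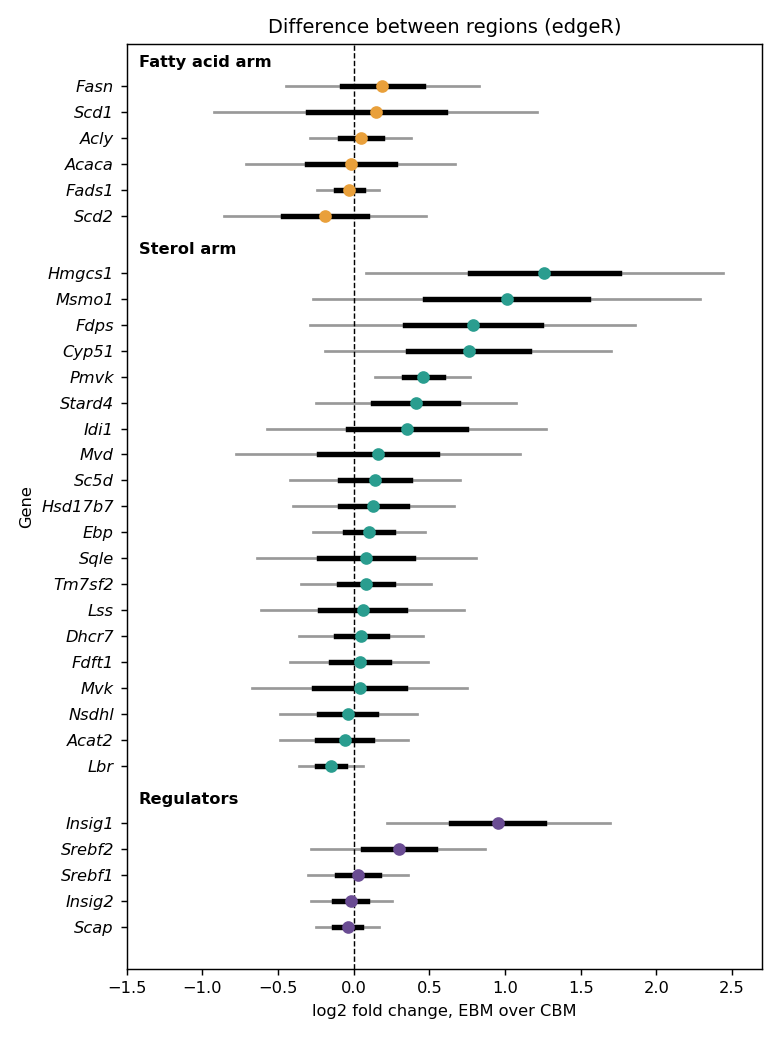
Log2 fold change of EBM over CBM (horizontal axis) for the 31 tested members by arm; points are edgeR estimates, black bars ± 1 standard error and grey bars 95% intervals, with 3 libraries per region. Only the intervals of Hmgcs1, Pmvk and Insig1 lie wholly above 0, and the fatty acid genes sit between -0.19 and 0.19.

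Among the regulators, the difference was in Insig1, the sterol-sensitive anchor of SCAP, which is itself an SREBP target. Insig1 had 96.3, 54.6 and 133 CPM in CBM replicates 1, 2 and 3 and 155, 211 and 184 CPM in EBM replicates 1, 2 and 3. All EBM libraries lay above all CBM libraries, and the lowest value was that of CBM replicate 2. Its log2 fold change was 0.95 ± 0.31 (standard error, a 1.94-fold higher level), with p = 0.0181 before and 0.513 after adjustment in edgeR, an adjusted p of 0.0964 in DESeq2 and an exact permutation p of 0.1, the smallest that 3 against 3 libraries allow. Without EBM replicate 2 it was 0.84 with an unadjusted p of 0.0649 in edgeR.

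For Insig2, the paralog not known as a classical SREBP target, no difference beyond the spread was measured. Its level was 22.6, 20.9 and 21.6 CPM in CBM and 22.6, 21.7 and 20.1 CPM in EBM, with a log2 fold change of -0.02 and a 95% interval of -0.28 to 0.25. Per length, the ratio of Insig1 to Insig2 was 4.78, 2.93 and 6.93 in the CBM libraries and 7.71, 10.9 and 10.3 in the EBM libraries, without overlap. Scap, the escort protein, had 126, 120 and 125 CPM in CBM and 123, 111 and 127 CPM in EBM (log2 fold change -0.04, interval -0.25 to 0.17).

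Neither of the transcription factors differed beyond the spread between libraries. Srebf1 had 261, 285 and 344 CPM in CBM and 266, 314 and 328 CPM in EBM (0.03 ± 0.14 on the log2 scale, edgeR adjusted p = 0.989). Srebf2 had 387, 227 and 391 CPM in CBM and 465, 443 and 325 CPM in EBM (0.30 ± 0.24, edgeR adjusted p = 0.856). CBM replicate 2 was the lowest for Srebf2 and EBM replicate 3 the next, whereas Srebf1 showed no such low pair. The ratio of Srebf1 to Srebf2 per length was highest in these 2 libraries, at 1.6 and 1.29, against 0.859 and 1.12 in the other CBM libraries and 0.728 and 0.903 in the other EBM libraries.

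**Figure D2:**
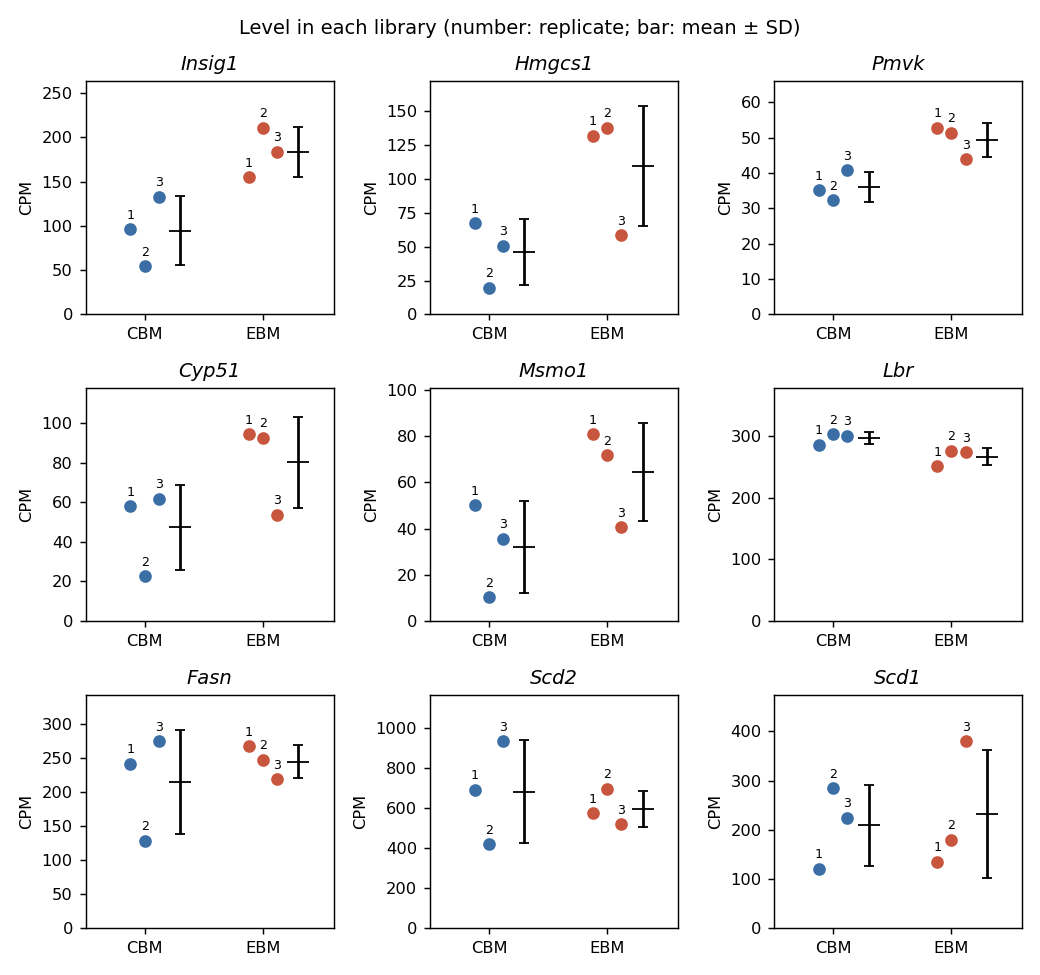
Level in CPM (vertical axis from 0) of 9 members in each library of CBM and EBM; each point is a library labelled with its replicate number, and the bars are mean ± SD (n = 3). Insig1 and Pmvk do not overlap between the regions, Hmgcs1, Cyp51 and Msmo1 are lowest in CBM replicate 2 and lowest within EBM in replicate 3, and Scd1 is highest in these 2 libraries.

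All 20 genes of the sterol arm passed the filter. The estimate was positive, that is higher in EBM, for 17 of them and negative for 3, and the log2 fold changes had a median of 0.12 and ranged from -0.15 to 1.26. Hmgcs1 and Pmvk had an unadjusted p under 0.05 and none passed adjustment. The 6 genes from mevalonate synthesis to farnesyl diphosphate (Hmgcs1, Mvk, Pmvk, Mvd, Idi1 and Fdps) had a median of 0.40, with 6 of 6 higher. The 4 genes of squalene and lanosterol synthesis and demethylation (Fdft1, Sqle, Lss and Cyp51) had a median of 0.07, with 4 of 4 higher, and the 8 genes acting after lanosterol demethylation a median of 0.09, with 6 higher and 2 lower. Acat2 and Stard4 lie outside these stretches. Without CBM replicate 2 the median of the arm was -0.06, so that its sign rested on that library.

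Hmgcs1, which makes HMG-CoA at the entry of the mevalonate pathway, had the largest difference of the members. It had 67.5, 19.6 and 50.6 CPM in CBM and 132, 138 and 58.6 CPM in EBM, so that EBM replicates 1 and 2 stood above all other libraries and EBM replicate 3 fell within the CBM range. The log2 fold change was 1.26 ± 0.49 (2.39-fold higher), with adjusted p = 0.596 in edgeR (unadjusted 0.0394) and adjusted p = 0.175 in DESeq2. Without CBM replicate 2 the log2 fold change was 0.90 with an unadjusted p of 0.0584. Its overlap with Gm48342, on the opposite strand, leaves its counts uncertain.

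Pmvk, the phosphomevalonate kinase, showed a smaller but more even difference. It had 35.1, 32.2 and 40.7 CPM in CBM and 52.8, 51.4 and 43.9 CPM in EBM, with every EBM library above every CBM library. The log2 fold change was 0.46 ± 0.13 (1.37-fold higher), with p = 0.0108 before and 0.429 after adjustment in edgeR and an exact permutation p of 0.1. Fdps, at the end of this stretch of the pathway, had only 33, 19 and 66 counts in CBM and 45, 79 and 59 counts in EBM. Its difference on the log2 scale was 0.79 ± 0.45 (edgeR adjusted p = 0.730).

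Cyp51 and Msmo1, which remove methyl groups from lanosterol and the sterols made from it, had the same lowest library as Hmgcs1, CBM replicate 2, and the same 2 highest, EBM replicates 1 and 2. Cyp51, the lanosterol demethylase, had 58, 22.7 and 61.7 CPM in CBM and 94.2, 92.6 and 53.6 CPM in EBM (0.76 ± 0.40 on the log2 scale, edgeR adjusted p = 0.706). Msmo1, the C4-methylsterol oxidase, had 50, 10.4 and 35.6 CPM in CBM and 80.7, 71.8 and 40.6 CPM in EBM (1.01 ± 0.54, edgeR adjusted p = 0.715). In both genes the regions overlapped because EBM replicate 3 fell into the CBM range.

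Lbr was the exception in direction. With the overlap on the opposite strand given above, it had 285, 302 and 300 CPM in CBM and 251, 276 and 273 CPM in EBM, with every EBM library below every CBM library. On the log2 scale EBM minus CBM was -0.15 ± 0.09, with edgeR adjusted p = 0.736. Tm7sf2, which encodes the other sterol reductase of this step, had a log2 fold change of 0.08 with a 95% interval of -0.35 to 0.51, and Nsdhl and Acat2 were the other 2 sterol genes with a negative sign, at -0.04 and -0.06.

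The other sterol genes overlapped between the regions, with log2 fold changes between -0.06 and 0.41. Stard4, a carrier that moves cholesterol between membranes, was at 0.41 (unadjusted p = 0.181) and Idi1, the isopentenyl diphosphate isomerase, at 0.35 with an interval of -0.57 to 1.27. Sqle, the squalene epoxidase that limits flux into sterols, was at 0.08 with an interval of -0.64 to 0.81, and Lss, which closes the sterol rings, at 0.06. Dhcr7, which makes cholesterol from its last precursor, was at 0.05 with an interval of -0.36 to 0.46. Intervals of this width do not show that these genes were equal in the 2 regions.

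The sterol genes shared an order of libraries that ran across the regions. After subtracting each gene's mean, the arm averaged 0.08, -0.71 and 0.15 log2 units in CBM replicates 1, 2 and 3 and 0.28, 0.30 and -0.10 in EBM replicates 1, 2 and 3. CBM replicate 2 was the lowest library for 18 of 20 sterol genes, against 20.6% of all genes tested. For 12 of 20 sterol genes (60%), CBM replicate 2 and EBM replicate 3 were the 2 lowest libraries, against 16.7% of all genes. The low value of CBM replicate 2 was -0.96 over the mevalonate genes, -0.81 over the squalene and lanosterol genes and -0.50 over the later genes. Median within-region SD was 0.40 log2 units in the sterol arm and 0.22 over all genes. CBM replicate 2 and EBM replicate 3 also held the highest summed erythroid markers of their regions, and the part of these cells, or of RNA from them, in the low sterol genes was not tested. In bulk RNA, fewer cells of a type and less RNA per cell cannot be told apart.

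**Figure D3:**
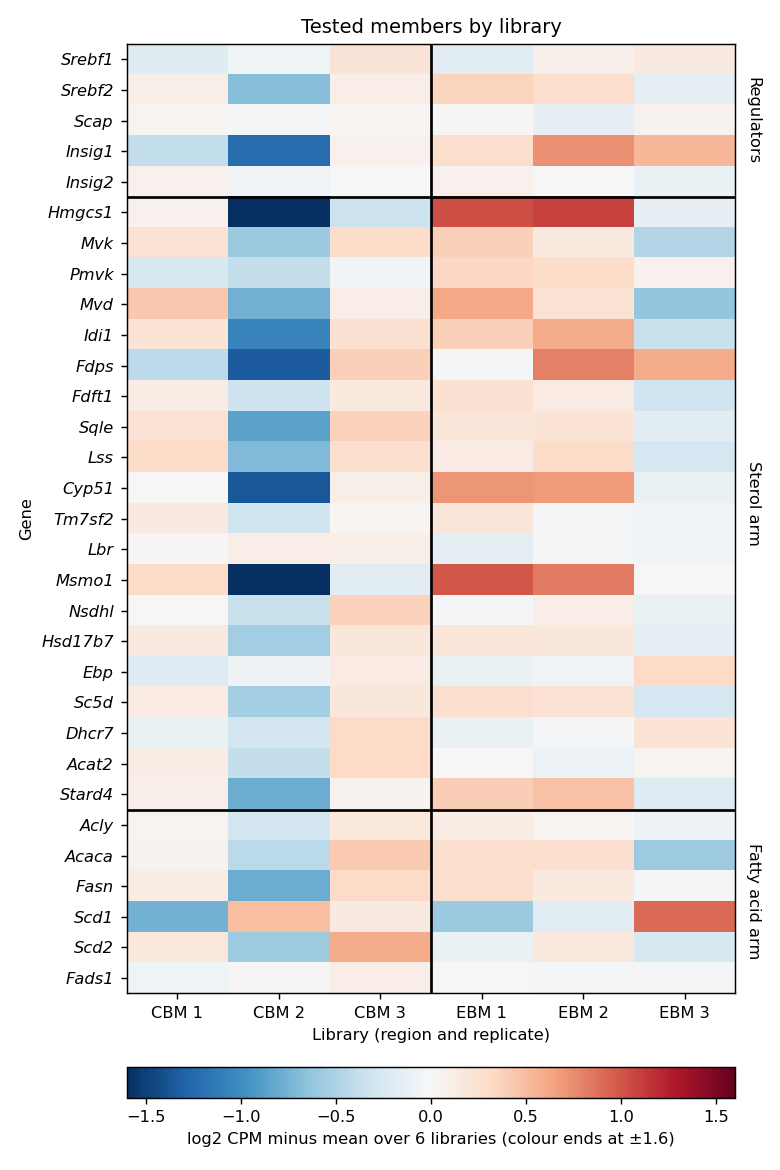
Heat map of the 31 tested members (rows, by arm) in the 6 libraries (columns); colour is log2 CPM minus the gene's mean over the 6 libraries, blue below and red above, with the colour scale ending at ±1.6. The column of CBM replicate 2 is blue through most of the sterol arm, and Scd1 is red in CBM replicate 2 and EBM replicate 3 where Scd2 is blue.

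In the fatty acid arm no gene approached the threshold. Of the 6 genes tested, 3 had a higher and 3 a lower estimate in EBM. Their log2 fold changes had a median of 0.01 and ranged from -0.19 to 0.19, and 0 had an unadjusted p under 0.05. Fasn, the fatty acid synthase, had 241, 128 and 274 CPM in CBM and 267, 247 and 218 CPM in EBM (0.19 ± 0.27, edgeR adjusted p = 0.954). Its 95% interval of -0.45 to 0.83 leaves room for a change of either sign. Acly had 350, 274 and 381 CPM in CBM and 369, 348 and 320 CPM in EBM, at a log2 fold change of 0.05. Acaca, the acetyl-CoA carboxylase, was at -0.02 with an interval of -0.71 to 0.67. In these 3 genes, which carry carbon from citrate to palmitate, CBM replicate 2 and EBM replicate 3 were again the 2 lowest libraries. Fads1, the delta-5 desaturase, varied least, at 65, 69 and 73.3 CPM in CBM and 68, 67.1 and 67.5 CPM in EBM, with a log2 fold change of -0.03 and an interval of -0.24 to 0.17.

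The 2 stearoyl-CoA desaturases ran opposite to each other in CBM replicate 2 and EBM replicate 3, and in the same order in CBM replicate 3 and EBM replicate 2, the highest of the other 4 libraries for both. Scd2 had 691, 417 and 932 CPM in CBM and 573, 694 and 518 CPM in EBM, with CBM replicate 2 and EBM replicate 3 lowest. Scd1 had 120, 284 and 224 CPM in CBM and 135, 180 and 380 CPM in EBM, with the same libraries highest. Neither differed between the regions beyond the spread of the libraries, at -0.19 ± 0.28 for Scd2 (edgeR adjusted p = 0.954) and 0.15 ± 0.45 for Scd1 (edgeR adjusted p = 0.984). Per length, the ratio of Scd1 to Scd2 was 0.767 in CBM replicate 2 and 0.827 in EBM replicate 3, and between 0.196 and 0.293 in the other 4 libraries. Only 3.15% of the 75-base words of Scd1 and 1.78% of those of Scd2 occurred in other genes. CBM replicate 3 was the highest library for 5 of 6 fatty acid genes, against 10.7% of all genes.

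**Figure D4:**
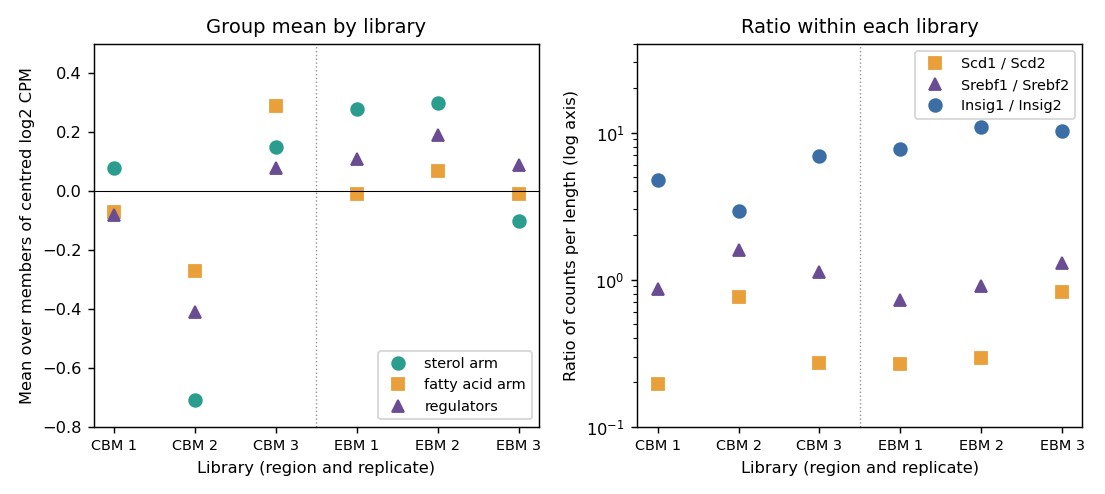
Left, mean over the tested members of each arm of log2 CPM minus the gene's mean, by library; right, ratios of counts per length within each library on a log axis. The sterol arm falls to -0.71 in CBM replicate 2, and the ratio of Scd1 to Scd2 reaches 0.767 and 0.827 in CBM replicate 2 and EBM replicate 3. The ratio of Insig1 to Insig2 is higher in every EBM library than in any CBM library, with 6.93 in CBM replicate 3 and 7.71 in EBM replicate 1 the closest.

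The rest of the pathway was read from fixed lists. Of 7 other sterol synthesis genes tested, 6 had a higher and 1 a lower estimate in EBM, and Erg28, a scaffold of the sterol demethylation complex, was at 0.15 on the log2 scale. Sterol uptake and efflux genes were divided, with 5 higher and 9 lower of 14 tested. Npc2, which exports cholesterol from lysosomes, had 133, 94.3 and 113 CPM in CBM and 146, 127 and 138 CPM in EBM (0.28 ± 0.14 on the log2 scale, edgeR adjusted p = 0.692).

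Genes that process SREBPs or set their level had 5 higher and 4 lower of 9, with Lpin1 at 0.22 (unadjusted p = 0.13). The isoprenoid branch, which draws on farnesyl diphosphate for prenylation, dolichol and ubiquinone, had 6 higher and 5 lower of 11, with the smallest p for Dhdds (0.16) and Fnta (-0.13). Of 18 other lipogenesis genes tested, 11 were higher and 7 lower. The smallest p belonged to Mcat (-0.25) and the citrate carrier Slc25a1 (0.19), while the log2 fold changes of the list ranged from -0.56 to 0.33. Elovl3, Thrsp and Pnpla3, lipogenic genes of liver and fat, had no count in any library.

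Fatty acid oxidation, the opposite route, had 12 higher and 7 lower of 19 genes tested. Etfdh, which passes electrons from fatty acid oxidation to ubiquinone, had 62.2, 111 and 50.1 CPM in CBM and 136, 137 and 136 CPM in EBM (0.87 ± 0.28, unadjusted p = 0.0174, adjusted p = 0.507 in edgeR), and Acadm, the medium-chain dehydrogenase, was at -0.25. No gene of these lists passed adjustment in edgeR. Genes that respond to dissociation and heat also differed between the regions, in both directions. Of the 15 tested, 10 had a higher and 5 a lower estimate in EBM. By edgeR, 4 were higher and 1 lower in EBM at an unadjusted p under 0.05, and DESeq2 called 3 after adjustment. These 3 were Hspa1a and Hspa1b, higher in EBM, and Dusp1, lower in EBM. Hspa1b had 9.5, 3.74 and 3.37 CPM in CBM and 112, 50.3 and 58.6 CPM in EBM. Hspa1a had only 2, 2 and 2 counts in CBM and 53, 50 and 22 counts in EBM. The size of its difference, 4.40 log2 units, is uncertain because its CBM counts lay under the floor of 3 counts. Dusp1 had 1330, 764 and 595 CPM in CBM and 382, 447 and 400 CPM in EBM. The summed level of the list overlapped (3870 to 10400 CPM in CBM, 8250 to 10100 CPM in EBM). The part of collagenase treatment in the differences of Insig1, Hmgcs1 and Pmvk was not tested.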

How the data were processed

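RNA was sequenced from AE9a leukemia cells of CBM and EBM, with 3 libraries each, after rRNA depletion and directional library preparation. The authors deposited raw counts per gene with coordinates and gene lengths, without normalization. The submitters' processing notes name HISAT2 2.0.5 and the build mm10, and the counting tool and its strand setting are not given in the sources used here. Of the identifiers, 54409 are in GENCODE M21 (GRCm38), 98.3% of them with the same coordinates. Groups came from the sample labels.

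The filter on low counts was filterByExpr of edgeR 4.0.16, and scaling was by TMM (R 4.3.3). The quasi-likelihood F-test was fitted over all 13352 genes kept, with Benjamini-Hochberg adjustment over them at 0.05. The standard error is the absolute log2 fold change divided by the square root of F. Single values were also tested by exact permutation over the 20 relabellings, two-sided, on log2 CPM with a prior count of 2. The fits were run on simulated data with known changes. These counts were drawn independently, without the library split seen here, so the check does not cover that split. TPM is counts per base of gene length, scaled to the same total in each library. Floors of 3 counts cover counting error only. Overlap with other genes and 75-base words came from GENCODE transcripts, and promoters from RefSeq.

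The members and lists were chosen with earlier results of these data known, in which Insig1 and Hmgcs1 were already seen to be higher in EBM. Named in full were the 6 sterol and 4 fatty acid genes with the smallest p and all regulators, with 2 genes per other list, of which some are not reported here. Alternatives were DESeq2 1.42.0, limma-voom (limma 3.58.1), RLE and upper quartile factors, 2 other filters on low counts, a replicate block and each library left out in turn, and, chosen after seeing the data, CBM replicate 2 and EBM replicate 3 left out together.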

Additional observations from a re-analysis of the deposited data

How the results depend on the processing

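No member passed adjustment under any alternative, with smallest adjusted p-values of 0.0823 for Hmgcs1, 0.0964 for Insig1 and 0.106 for Cyp51. Over all genes, calls after adjustment numbered 0 in edgeR as reported, 173 in DESeq2, 40 with every gene of at least 1 count and 13 without CBM replicate 2 and EBM replicate 3 together. The number of sterol genes at an unadjusted p under 0.05, 2 as reported, was 4 in DESeq2, 4 with every gene of at least 1 count, 5 without both libraries, 1 with the replicate block and 1 to 3 with a library left out. Insig1, the regulator at this level, lost it without EBM replicate 2 (count 0). Without both libraries the sign turned for Srebf1 (-0.06), Sqle (-0.10), Lss (-0.06), Tm7sf2 (-0.01), Ebp (-0.06), Dhcr7 (-0.17), Acly (-0.03), Acaca (0.02) and Scd1 (-0.13).

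With a library left out in turn, Insig1 (0.68 to 1.28), Hmgcs1 (0.90 to 1.64), Pmvk, Cyp51, Msmo1, Fdps, Stard4, Idi1, Srebf2 and Lbr held their sign. It turned for Srebf1 (-0.05 to 0.15), Scap (-0.09 to 0.01), Insig2 (-0.05 to 0.02), Mvk (-0.19 to 0.24), Mvd (-0.13 to 0.43), Fdft1 (-0.10 to 0.18), Sqle (-0.21 to 0.30), Lss (-0.20 to 0.21), Tm7sf2 (-0.04 to 0.18), Nsdhl (-0.20 to 0.16), Hsd17b7 (-0.07 to 0.26), Ebp (-0.05 to 0.20), Sc5d (-0.05 to 0.29), Dhcr7 (-0.07 to 0.24), Acat2 (-0.24 to 0.09), Acly (-0.08 to 0.15), Acaca (-0.21 to 0.20), Fasn (-0.08 to 0.40), Scd1 (-0.42 to 0.43), Scd2 (-0.45 to 0.10) and Fads1 (-0.08 to 0.01). The median of the sterol arm ran from -0.06 to 0.25 and that of the fatty acid arm from -0.08 to 0.17. The cause of these changes was not tested.

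The labels do not say whether same-numbered libraries share a mouse, and correlations over 3 libraries per region cannot settle it. Deviations from the region means of all genes correlated at 0.68, -0.20 and 0.20 between the libraries numbered 1, 2 and 3. The correlation was 0.51 between CBM replicate 2 and EBM replicate 3. With the replicate number as a block, Insig1 had a log2 fold change of 1.03 (unadjusted p = 0.0282, edgeR adjusted p = 0.517) and Hmgcs1 an unadjusted p of 0.0667. Counts near the floor limit Elovl6 and Fads2, and low counts with shared sequence limit Fdps.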
